A study of Rattus norvegicus with 46 samples.

Results

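The aquaporins are membrane channels for water, and some members also let glycerol through. Messages of 7 of them were followed in injured rat kidneys: Aqp1, Aqp2, Aqp3, Aqp4, Aqp6, Aqp7 and Aqp11. A probe set was taken as a member when the platform annotation gave it one of these symbols and no other. All 7 symbols were found, with 1 probe set each, among the 17245 genes measured by 29214 probe sets. The RNA came from the kidneys of 46 male Wister rats in 10 groups, each animal on its own Affymetrix Rat Gene 1.1 ST array. Rats received 150 mg/kg VPA (valproic acid, which inhibits histone deacetylases), 3 mg/kg Dex (dexamethasone, a glucocorticoid) or Vehicle (saline) by intraperitoneal injection, and 30 min later a clamp closed the artery of the left kidney for 45 min. The right kidney was removed when flow was restored, and the left kidney was taken after 3, 24 or 120 h of reperfusion. VPA had 5, 5 and 4 animals at 3, 24 and 120 h. Dex had 4, 5 and 4 animals, and Vehicle had 5, 4 and 5 animals. The 5 naïve animals had neither injury nor drug and were killed right after anesthesia, so that surgery with its longer anesthesia and later analgesia, nephrectomy and ischemia cannot be told apart in any comparison with them.

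The members differ in where they sit along the nephron. Aqp1 is the constitutive water channel of the proximal tubule and the thin descending limb, and it is also found in vasa recta and red blood cells. Aqp7 passes water and glycerol in the straight part of the proximal tubule and is the glycerol channel of adipocytes, while Aqp11 lies inside proximal tubule cells and its loss gives polycystic kidneys in mice. Aqp2 is the channel that vasopressin sends to the apical membrane of collecting duct principal cells, and Aqp3 and Aqp4 carry the water out through the basolateral side of the same cells. Aqp6 lies in vesicles of acid-secreting intercalated cells. In the RefSeq annotation of the rat (GRCr8), Aqp7 and Aqp3 are next to each other on chromosome 5, and Aqp2 and Aqp6 flank Aqp5 on chromosome 7. Neighbours on the chromosome thus belong to different cell types.

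Promoter windows were available for 6 of the 7 genes. The 250 bases before the start are shown for Aqp2, Aqp3 and Aqp4, which varied together between animals as described below, and for Aqp1, whose correlation with them was lower. Coordinates are those of RefSeq GRCr8 and do not come from the array files. Capitals mark matches to AGATAA (the GATA motif), TGACG (the core of the cyclic AMP response element), GTTAAT (an HNF1 core) or TATAAA (the TATA box) on either strand, and TGANTCA (AP-1) and TGTTTAC (forkhead) were also searched.
Aqp2, chr7:132590036-132590285, plus strand: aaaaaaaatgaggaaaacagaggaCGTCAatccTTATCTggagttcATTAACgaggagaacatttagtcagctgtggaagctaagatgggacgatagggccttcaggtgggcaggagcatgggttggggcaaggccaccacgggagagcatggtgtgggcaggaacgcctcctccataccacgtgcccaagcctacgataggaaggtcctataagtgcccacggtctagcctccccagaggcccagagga
Aqp3, chr5:61040684-61040933, minus strand: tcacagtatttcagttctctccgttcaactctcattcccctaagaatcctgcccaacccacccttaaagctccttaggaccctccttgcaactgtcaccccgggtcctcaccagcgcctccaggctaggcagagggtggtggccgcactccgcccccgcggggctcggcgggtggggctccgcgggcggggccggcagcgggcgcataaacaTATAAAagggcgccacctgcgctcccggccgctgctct
Aqp4, outer of 2 starts, chr18:6798843-6799092, minus strand: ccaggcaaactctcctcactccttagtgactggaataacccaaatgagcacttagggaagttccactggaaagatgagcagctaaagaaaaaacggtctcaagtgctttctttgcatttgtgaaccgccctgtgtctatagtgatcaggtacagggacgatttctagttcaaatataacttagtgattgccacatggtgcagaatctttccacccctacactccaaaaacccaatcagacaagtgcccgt
Aqp1, chr4:85812534-85812783, plus strand: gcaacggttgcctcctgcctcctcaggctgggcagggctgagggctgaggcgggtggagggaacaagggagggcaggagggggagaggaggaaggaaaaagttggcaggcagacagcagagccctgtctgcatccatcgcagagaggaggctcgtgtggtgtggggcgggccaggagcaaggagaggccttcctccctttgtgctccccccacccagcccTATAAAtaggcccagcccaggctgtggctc
The Aqp2 window held the response element core at position -226, the GATA letters at -217 and the HNF1 core at -204, each as the reverse complement and counted back from the start. Aqp1 and Aqp3 held the TATA box at -30 and -38. The windows of Aqp4, Aqp6 and Aqp11 held none of these letters, Aqp4 at either start. Among 33469 rat promoter windows of this length, 10.3% held the GATA letters, 18.2% the response element core, 6.45% the HNF1 core, 12.9% the TATA box, 6.34% the AP-1 letters and 3.21% the forkhead letters. No binding was measured, so these matches only describe the sequence.

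Signals are given on the linear scale of the deposited values, and differences between groups as log2(signal + 16), with the standard error of the fit. The 10 groups were fitted together with limma. A member was called where it changed at least 2-fold and its p-value, adjusted by Benjamini-Hochberg across the 14607 probe sets left after the 50% with the lowest standard deviation were removed, was below 0.05. All 7 members were among those tested. Array medians lay between 64.7 and 87.5, and each member lay above the median of its array in all 46 animals. RNA from a whole tissue cannot tell fewer cells of a type from less RNA per cell.

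All 7 members were on average lower than in naïve animals in most injured groups, with a difference below 0 in 60 of 63 values. An unadjusted p was under 0.05 for 17 values and an adjusted p for 9, and 4 met the call, all of them falls. The 9 values are 14.3% of the 63, against 19.4% of all tested probe sets past the same p-value in these 9 comparisons together, or 7.73% counting falls only. Aqp1, Aqp6 and Aqp7 fell in Vehicle animals at 24 h, and Aqp6 fell in Dex animals at 120 h. These were 3 of the 7 genes in Vehicle animals at 24 h, where 4.23% of all probe sets fell, and 1 of 7 in Dex animals at 120 h, where 3.73% fell. The median difference of the 7 members at 24 h was -0.78 in VPA, -0.42 in Dex and -0.64 in Vehicle animals, against 0.11, 0.17 and 0.13 over all probe sets tested. All comparisons with naïve share the same 5 naïve animals. No member was called at 3 h, where 0.459% (VPA), 0.657% (Dex) and 0.459% (Vehicle) of probe sets fell. None was called in VPA or Dex animals at 24 h, against 3.55% and 2.59% of probe sets, nor in VPA or Vehicle animals at 120 h, against 0.192% and 1.51%. The other 5 aquaporins of the array (Mip, Aqp5, Aqp8, Aqp9 and Aqp12a), of which 2 varied enough to be tested, were called in no comparison. Aqp8 passed the p-value alone in Vehicle animals at 3 h (0.53 ± 0.16, adjusted p = 0.0186), as did 9.27% of probe sets with a rise. It also passed between 24 and 3 h in VPA animals (-0.42 ± 0.16, adjusted p = 0.0478), as did 33.1% of probe sets in either direction.

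**Figure D1:**
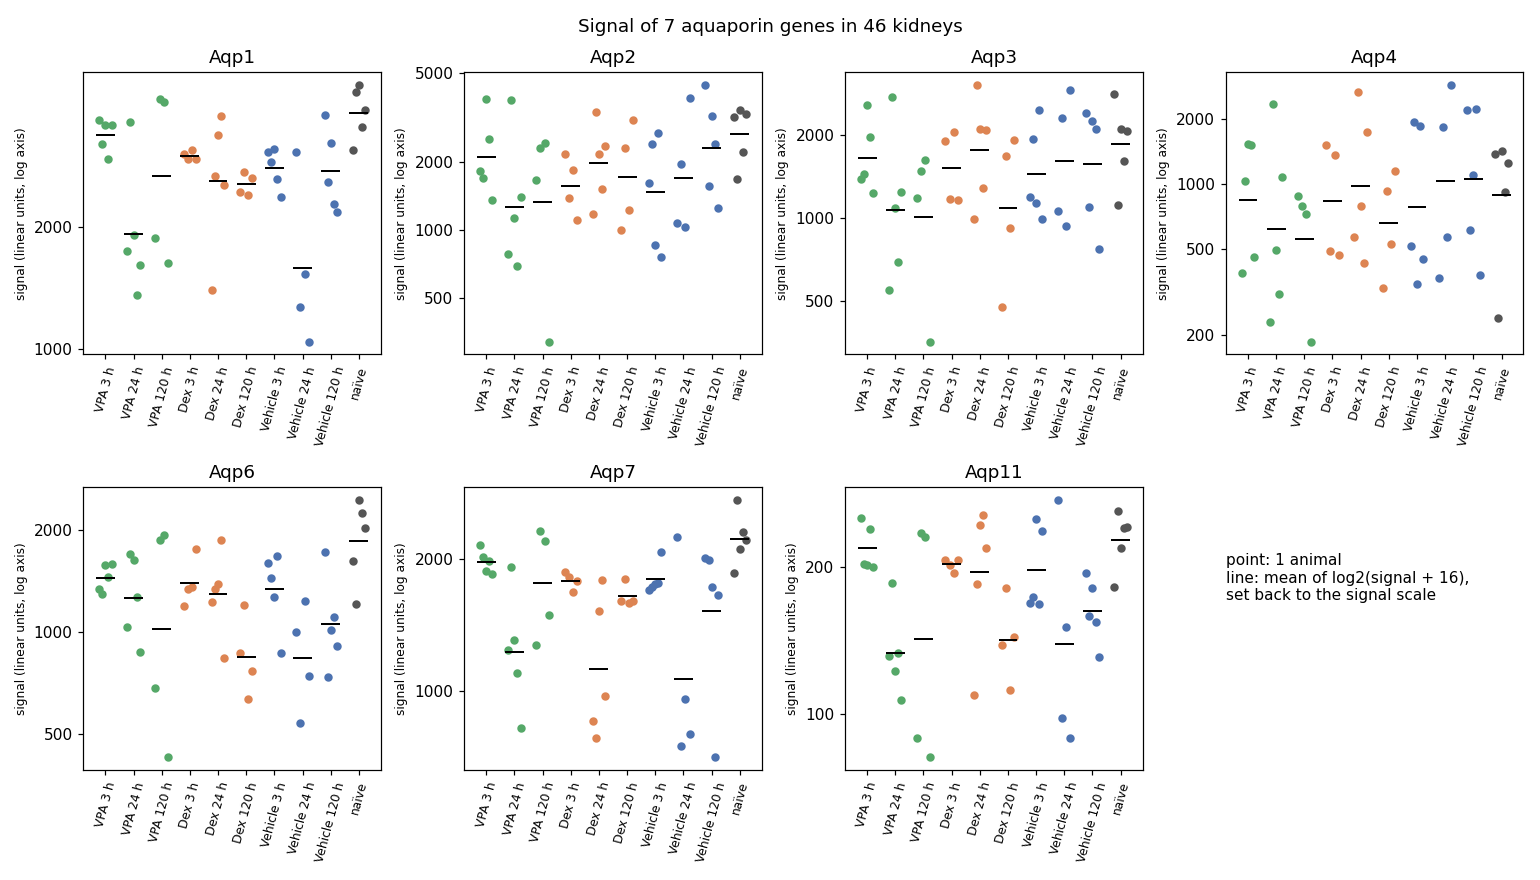
Signal of each aquaporin gene (log axis, linear units) in 46 kidneys, by treatment and time, with naïve animals at the right. Each point is 1 animal and each line a group mean. Aqp1 and Aqp7 sit low in most 24 h animals, with 1 Vehicle animal at 3060 and 2234 near the naïve level, while Aqp2, Aqp3 and Aqp4 spread widely within groups.

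Aqp1, the main water channel of the proximal tubule, was lowest in Vehicle animals at 24 h. Its signals in Vehicle animals at 24 h were 3060, 1271, 1528 and 1043, against 3078, 4275, 4466, 3509 and 3872 in naïve animals. Every Vehicle animal lay below every naïve animal, although Vehicle replicate 1, at 3060, lay only just below the lowest of them. The difference was -1.26 ± 0.27 (2.40-fold lower, adjusted p = 0.000772), and without replicate 1 it was -1.58. In VPA animals at 24 h the signals were 1738, 3617, 1904, 1356 and 1607, so that 4 of 5 lay below the naïve range and replicate 2 lay within it. That difference, -0.98 ± 0.25 (adjusted p = 0.00244), passed the p-value but was just short of 2-fold. It reached -1.21 and was called without VPA replicate 2. In Dex animals at 24 h the signals were 1394, 2657, 3361, 3736 and 2533, with 3 of 5 below the naïve range and replicate 1 the farthest (difference -0.55 ± 0.25, adjusted p = 0.116).

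In VPA and Vehicle animals Aqp1 was nearer to the naïve level at 3 and 120 h than at 24 h, and in Dex animals its mean was about the same at 24 and 120 h. At 3 h the signals were 2934 to 3648 in VPA, 2932 to 3079 in Dex and 2364 to 3099 in Vehicle animals, against 3078 to 4466 in naïve animals, with differences of -0.18, -0.35 and -0.44 and adjusted p-values of 0.664, 0.426 and 0.232. At 120 h the 4 VPA animals split into a high pair (4130 and 4046) and a low pair (1871 and 1624). The 4 Dex animals at 120 h (2433, 2725, 2386 and 2627) were close to each other and all below the naïve range, yet their difference of -0.58 ± 0.27 did not meet the call (adjusted p = 0.0975). Vehicle animals at 120 h had 3762, 2581, 3210, 2269 and 2178 (difference -0.47 ± 0.25, adjusted p = 0.189). In the order of group means, naïve animals came first (11.90 ± 0.22, SD of log2 values, n = 5), followed by VPA, Dex and Vehicle at 3 h. Vehicle at 24 h came last (10.64 ± 0.67, n = 4), behind VPA at 24 h (10.92 ± 0.54, n = 5). Of the 9 steps between neighbours in this order, 8 were smaller than the larger SD of their groups, the exception being the step of 0.17 between VPA and Dex at 3 h. Among the 54 steps of the other 6 members, the same exception was found once, between VPA and Vehicle at 3 h for Aqp7.

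Aqp7, the water and glycerol channel of the straight proximal tubule, was low in all 3 treatments at 24 h. In VPA animals the signals were 1238, 1911, 1305, 1103 and 826, in Dex animals 856, 782, 1521, 1787 and 974, in Vehicle animals 2234, 751, 961 and 801, and in naïve animals 1851, 2715, 2105, 2294 and 2199. Every Dex animal lay below every naïve animal, whereas VPA replicate 2 and Vehicle replicate 1 lay inside the naïve range. The differences at 24 h were -0.84 ± 0.24 in VPA (adjusted p = 0.00646), -0.97 ± 0.24 in Dex (adjusted p = 0.00437) and -1.04 ± 0.26 in Vehicle animals (adjusted p = 0.00245). All passed the p-value, as did 33.0%, 20.4% and 29.0% of probe sets in VPA, Dex and Vehicle animals at 24 h, and only the Vehicle difference reached 2-fold. That call was close to the threshold: it was lost without naïve replicate 2 (-0.97), Vehicle replicate 2 (-0.88), replicate 3 (-0.99) or replicate 4 (-0.91), and the difference was -1.39 without Vehicle replicate 1. At 120 h, the 4 Dex animals were again tightly grouped (1601, 1800, 1589 and 1600) below the naïve range, and 1 of 5 Vehicle animals, replicate 4 at 710, was far below the others.

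Aqp11, the intracellular channel of the proximal tubule, differed by less than 2-fold from naïve in all 9 injured groups. Its signals at 24 h were 131, 185, 122, 133 and 107 in VPA animals and 274, 98.0, 151 and 89.6 in Vehicle animals, against 182, 261, 219, 240 and 241 in naïve animals. Vehicle replicate 1 was above every naïve animal while the other 3 were below all of them. The differences, -0.70 ± 0.23 in VPA (adjusted p = 0.0154) and -0.64 ± 0.24 in Vehicle animals (adjusted p = 0.0398), passed the p-value alone. The VPA difference missed it without VPA replicate 5 (adjusted p = 0.0503). The Vehicle difference missed it without naïve replicate 2, 3, 4 or 5 (adjusted p = 0.0558 to 0.0838) and without Vehicle replicate 2, 3 or 4 (adjusted p = 0.188, 0.0625 and 0.211). In Dex animals Aqp11 differed from naïve by -0.20 ± 0.23 at 24 h (adjusted p = 0.544) and by -0.62 ± 0.24 at 120 h (adjusted p = 0.0509), where the 4 animals (138, 181, 112 and 144) lay below the naïve range, replicate 2 only just.

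Aqp6, the vesicle channel of intercalated cells, was called in Vehicle animals at 24 h and in Dex animals at 120 h. In Vehicle animals at 24 h its signals were 1004, 542, 1239 and 743, against 1620, 1212, 2458, 2246 and 2030 in naïve animals (difference -1.13 ± 0.31, adjusted p = 0.00515). Vehicle replicate 3 lay just above the lowest naïve animal, so that the groups overlapped. In Dex animals at 120 h the signals were 869, 1201, 637 and 769, all below the naïve range though the highest only just, with a difference of -1.12 ± 0.31 (adjusted p = 0.00753, a p-value threshold that 26.8% of probe sets passed in this comparison). Each call was lost when 1 animal was left out. Without Vehicle replicate 2 the Vehicle difference was -0.92, and without Dex replicate 3 the Dex difference was -0.99. At 120 h the differences of -0.85 ± 0.31 in VPA animals (adjusted p = 0.104) and -0.81 ± 0.29 in Vehicle animals (adjusted p = 0.0554) did not meet the call. The VPA group at 120 h was split in the same way as for Aqp1, with replicates 2 and 3 at 1871 and 1937 and replicates 1 and 4 at 688 and 429.

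**Figure D2:**
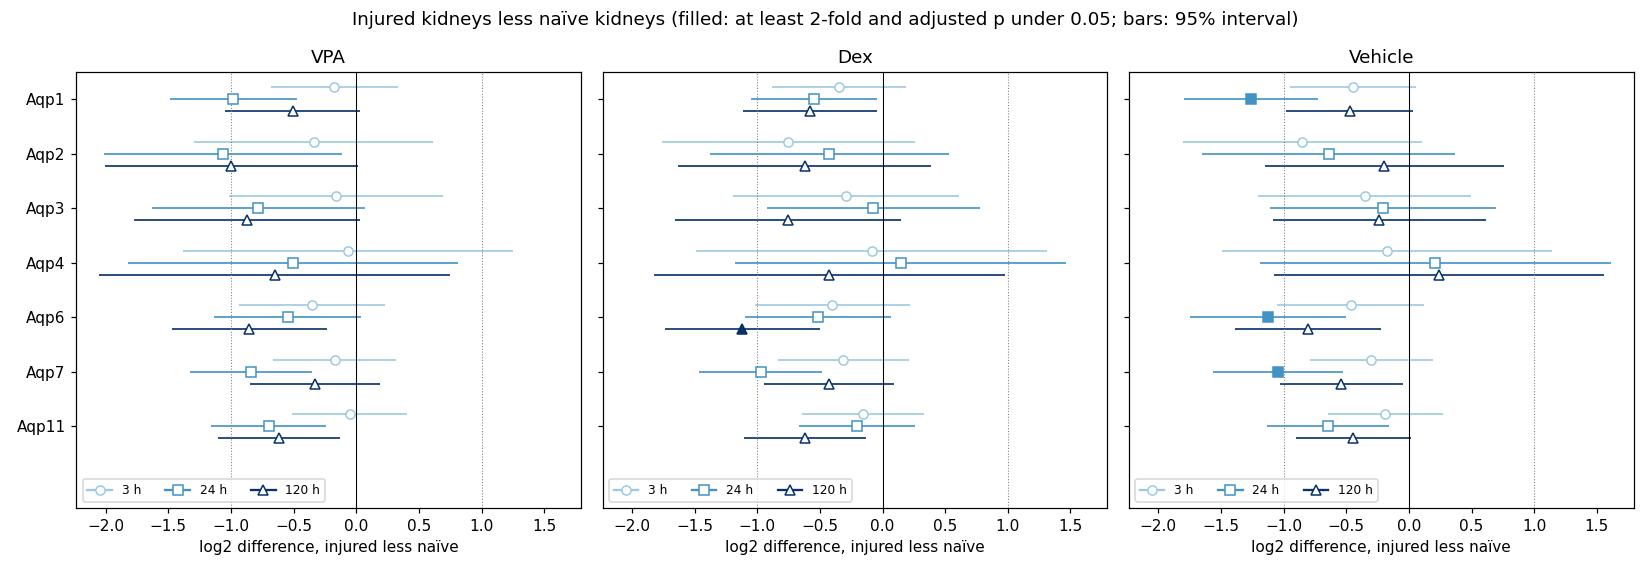
Difference in log2(signal + 16) of each aquaporin gene between injured and naïve kidneys, by treatment and time. Bars are 95% intervals of the fit, dotted lines mark a 2-fold difference, and the 4 filled symbols (Aqp1, Aqp6 and Aqp7 in Vehicle at 24 h and Aqp6 in Dex at 120 h) met the call.

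The 3 principal cell channels varied more within groups than the other members. Aqp2, Aqp3 and Aqp4 were called in none of the 9 comparisons with naïve animals, and their scatter within groups was the largest of the family (residual SD of 0.79, 0.70 and 1.09 on the log2 scale, against 0.37 to 0.48 for the other 4 members). Naïve animals alone ranged from 1687 to 3428 for Aqp2, from 1118 to 2820 for Aqp3 and from 241 to 1411 for Aqp4, the last a 5.86-fold range. Of the variance of Aqp4 over the 46 animals, 8.10% lay between the groups, compared with 19.0% for Aqp2, 18.5% for Aqp3 and 37.8% to 47.5% for the other members. Intervals were accordingly wide. The 95% interval for Aqp4 in Vehicle animals at 24 h ran from -1.19 to 1.61, so that neither a 2-fold fall nor a 2-fold rise lay outside it.

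Aqp2, the channel under vasopressin control, had its largest difference in VPA animals at 24 h. The signals there were 780, 3779, 1130, 694 and 1404, against 3183, 1687, 3428, 2231 and 3285 in naïve animals. Replicate 2 was above all naïve animals and the other 4 were below all of them. The difference of -1.06 ± 0.47 had an adjusted p of 0.0803. It became -1.45, and Aqp3 became -1.12 instead of -0.78, both with a call, when VPA replicate 2 was left out. In Vehicle animals at 24 h Aqp2 was 1075, 1976, 1029 and 3858, a spread from below to above the naïve range (difference -0.64 ± 0.50, adjusted p = 0.382). At 120 h, VPA replicate 4 had 319 for Aqp2, 357 for Aqp3 and 187 for Aqp4, the lowest values of these genes among the 46 animals.

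Aqp3 and Aqp4, the exit channels of the same cells, had no single time or treatment in which they stood apart. Aqp3 differed from naïve by -0.87 ± 0.45 in VPA animals at 120 h (adjusted p = 0.236), its largest difference, and by -0.07 ± 0.42 in Dex animals at 24 h (adjusted p = 0.917), its smallest. Aqp4 was the sole member with differences above 0, of 0.14 in Dex animals at 24 h and of 0.21 and 0.24 in Vehicle animals at 24 and 120 h. Each of these 3 differences turned negative with 1 animal left out. Aqp4 signals in Vehicle animals at 24 h were 367, 1831, 569 and 2866, against 1372, 241, 1411, 917 and 1246 in naïve animals, so that the Vehicle animals lay either above all naïve animals or below 4 of the 5.

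The principal cell channels varied with each other from animal to animal. After the group means were subtracted, the deviations of the 46 animals correlated between Aqp2 and Aqp3 with r = 0.95 (rho = 0.94), between Aqp3 and Aqp4 with r = 0.90 (rho = 0.87) and between Aqp2 and Aqp4 with r = 0.87 (rho = 0.86). Leaving out the 2 animals farthest from the median left r at 0.95, 0.91 and 0.87. Aqp1, Aqp7 and Aqp11, all of the proximal tubule, formed another set, with r of 0.74 (Aqp1 and Aqp7), 0.86 (Aqp1 and Aqp11) and 0.72 (Aqp7 and Aqp11). Across the sets the values were lower, from -0.31 (Aqp4 and Aqp7) to 0.38 (Aqp1 and Aqp2). The neighbours on chromosome 5, Aqp3 and Aqp7, had r = -0.08, and Aqp2 and Aqp6, which share a stretch of chromosome 7, had r = 0.44. These correlations describe the animals and carry no test, since all genes of an animal share 1 array and 1 piece of tissue.

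Each set moved with the other markers of its cell type. The mean deviation of 10 principal cell markers other than aquaporins, among them the sodium channel subunits Scnn1a, Scnn1b and Scnn1g and the transcription factor Gata3, correlated with Aqp2 (r = 0.93), Aqp3 (r = 0.91) and Aqp4 (r = 0.93). The 20 proximal tubule markers, such as the phosphate transporter Slc34a1 and the endocytic receptor Lrp2, correlated with Aqp1 (r = 0.91), Aqp11 (r = 0.88) and Aqp7 (r = 0.87), while r was between -0.10 and 0.22 for Aqp2, Aqp3 and Aqp4. The 14 intercalated cell markers, with proton pump subunits and the anion exchanger Slc4a1, which red blood cells carry too, correlated with Aqp6 (r = 0.88). The sets were not apart in every case: intercalated cell markers also correlated with Aqp11 (r = 0.73) and Aqp1 (r = 0.70), and proximal tubule markers with Aqp6 (r = 0.61). Without the 2 animals farthest out, r was 0.92, 0.89 and 0.92 for the principal cell channels, 0.88, 0.84 and 0.82 for Aqp1, Aqp11 and Aqp7, and 0.83 for Aqp6. Part of each left kidney was cut into pieces for molecular work, and which layer a piece held is not given in the sources used here. The part of cortex and medulla in these correlations was not tested.

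**Figure D3:**
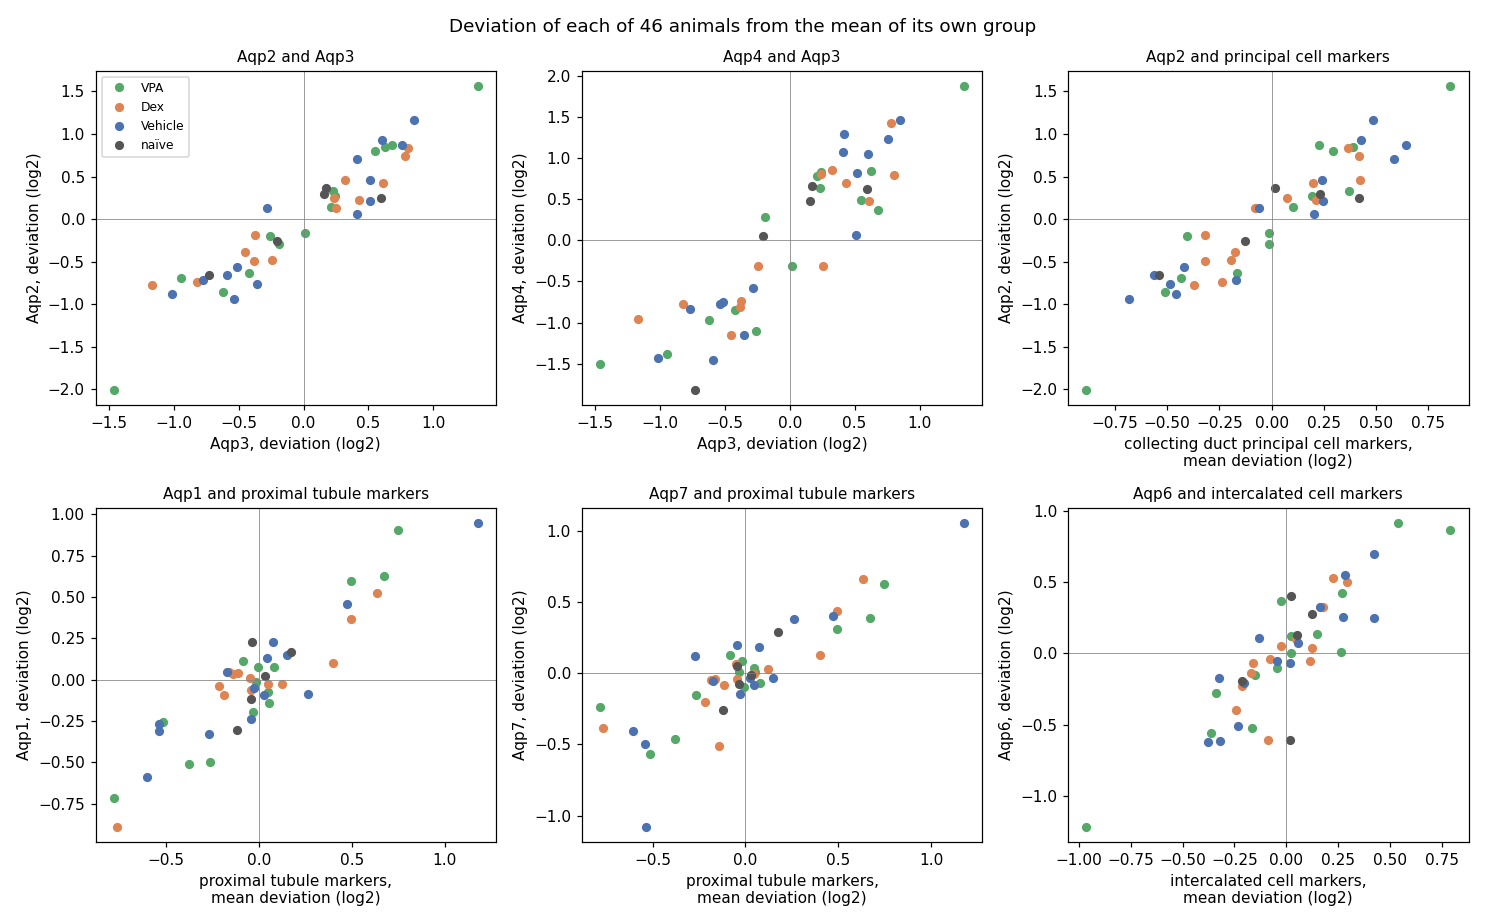
Deviation of each of the 46 animals from the mean of its own group, on the log2 scale, for pairs of aquaporin genes and for aquaporin genes against the mean of a marker list. Colors give the treatment. Points follow a rising line in all 6 panels, with r from 0.87 (Aqp7 and proximal tubule markers) to 0.95 (Aqp2 and Aqp3).

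Proximal tubule and intercalated cell markers were also lower in the comparisons in which the aquaporins of these cells were called, and in some where they were not. At 24 h, 3.55%, 2.59% and 4.23% of all tested probe sets fell in VPA, Dex and Vehicle animals. In Vehicle animals at 24 h, 12 of 20 proximal tubule markers fell, and 8 and 9 of 20 fell in VPA and Dex animals at that time. Their median difference was -0.90 in VPA, -0.74 in Dex and -1.09 in Vehicle animals at 24 h. Their summed signal was 17920 to 42031 in VPA, 15510 to 42644 in Dex and 15212 to 50685 in Vehicle animals, against 46377 to 54593 in naïve animals. Vehicle replicate 1, the animal with near-naïve Aqp1 and Aqp7, was the one with 50685, and its 9 tubular injury genes averaged 1.21 above naïve on the log2 scale, against 2.35 to 2.52 in the other 3. At 120 h, where Aqp1 and Aqp7 were not called, the summed signal of proximal tubule markers was 28844 to 39682 in Dex and 23177 to 44364 in Vehicle animals. Both lay below the naïve range, while VPA animals at 120 h (21231 to 50710) overlapped it. For intercalated cells, 4 of 14 markers fell in Vehicle animals at 24 h, against 4.23% of all probe sets. In Dex animals at 120 h 2 of 14 fell, against 3.73%. These were the groups in which Aqp6 was called, and the medians of the markers were -0.74 and -0.71. The summed signal of these markers was 5885 to 9346 in Dex animals at 120 h and 4958 to 8768 in Vehicle animals at 24 h, all below the naïve range of 9641 to 12094. In Dex animals at 3 h, where Aqp6 was not called, it was 7664 to 9632, also below that range. The other injured groups overlapped it. Of the 10 principal cell markers, 1 met the call at any time (the transcription factor Tfap2b, -1.02 ± 0.24 in Dex animals at 3 h, adjusted p = 0.00199). In that comparison 0.657% of all probe sets fell. The summed signal of the 10 principal cell markers overlapped the naïve range of 4362 to 7459 in every group. Their median difference at 24 h was -0.19 in VPA, 0.0025 in Dex and -0.08 in Vehicle animals. No marker of these lists was at 0, and their part in the aquaporin differences was not tested.

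Tubular injury genes, such as Havcr1 (Kim-1) and Lcn2 (lipocalin-2), moved against the members of the proximal tubule within groups. The correlation with their mean deviation was -0.77 for Aqp1, -0.70 for Aqp11, -0.69 for Aqp6 and -0.61 for Aqp7, but -0.37, -0.25 and -0.05 for Aqp2, Aqp3 and Aqp4. In VPA animals at 120 h the members of the proximal tubule and Aqp6 split along with the injury genes. Replicates 2 and 3, with injury genes 0.25 and 0.43 above naïve, had the high Aqp1, Aqp6, Aqp7 and Aqp11 values, and replicates 1 and 4, with injury genes 2.59 and 2.77 above naïve, had the low ones. Yet replicate 1 had 877 for Aqp4, the highest of the 4, while replicate 4 had 187. Macrophage markers correlated with the members between -0.63 (Aqp2) and -0.15 (Aqp7), and neutrophil markers between -0.64 (Aqp6) and -0.14 (Aqp4). The neutrophil list shares Lcn2 with the injury genes. Red blood cells also carry Aqp1, and their markers correlated with it at r = 0.08, while adipocyte markers correlated with Aqp7 at r = 0.14 and endothelial markers with Aqp1 at r = 0.13.

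**Figure D4:**
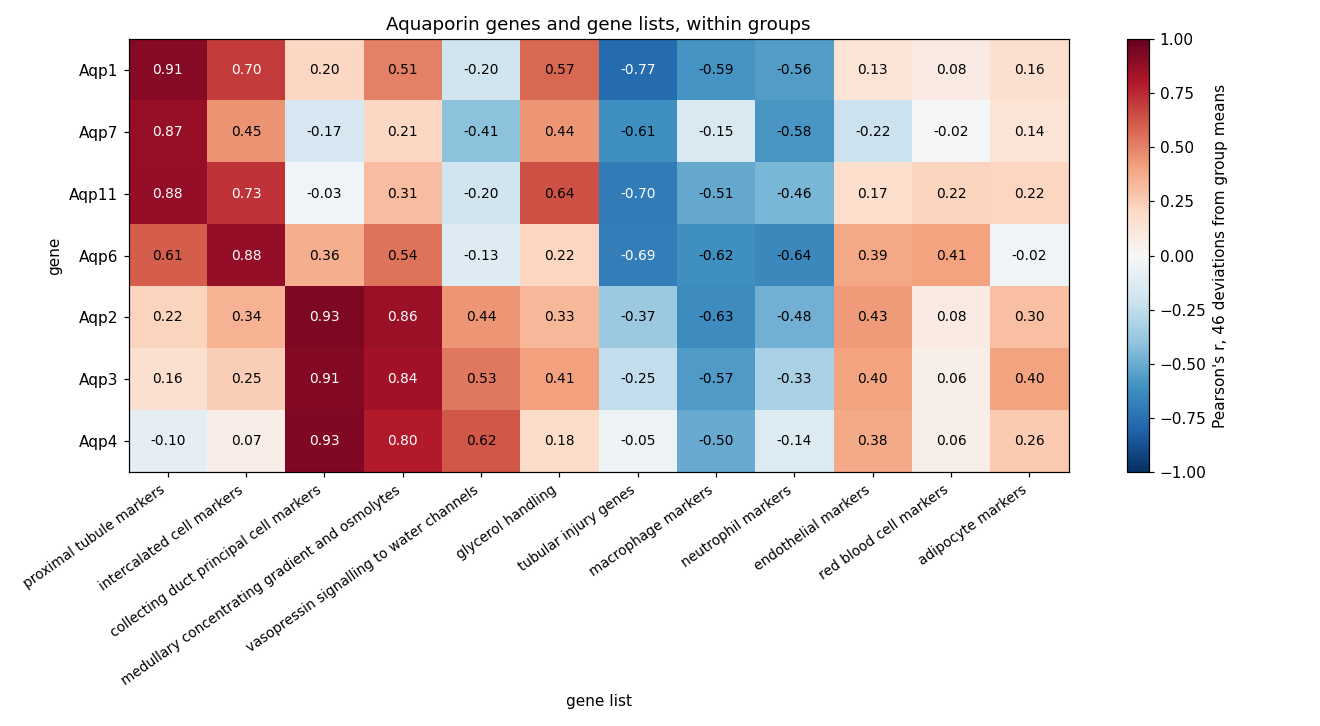
Pearson's r between each aquaporin gene (rows) and the mean of each gene list (columns) over the deviations of 46 animals from their group means. Aqp1, Aqp7 and Aqp11 are highest with proximal tubule markers (0.87 to 0.91), Aqp6 with intercalated cell markers (0.88) and Aqp2, Aqp3 and Aqp4 with principal cell markers (0.91 to 0.93).

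Water reabsorption in the collecting duct rests on vasopressin signaling and on a salty medulla. Of 26 genes listed for vasopressin signaling and the traffic of Aqp2 vesicles, 21 were measured and 13 tested. At 3 h Ptges, the enzyme that makes prostaglandin E2, which dampens the response to vasopressin, rose in all treatments (1.06 ± 0.22 in VPA, 1.42 ± 0.24 in Dex and 1.25 ± 0.22 in Vehicle animals, adjusted p = 0.000926, 2.12e-05 and 8.05e-05). Pde4b, a phosphodiesterase that breaks down cyclic AMP, rose in Vehicle animals at 3 h (1.19 ± 0.23, adjusted p = 0.000185). These were the sole calls of the list against naïve, where 1.43%, 4.44% and 3.18% of all probe sets rose at 3 h in VPA, Dex and Vehicle animals. The receptor Avpr2 was not among the genes measured by a probe set of its own.

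More genes of the list for the medullary gradient were called. Of its 11 measured genes, 4 fell in VPA animals at 24 h, 4 in Dex animals at 120 h and 4 in Vehicle animals at 24 h. In these comparisons 3.55%, 3.73% and 4.23% of all tested probe sets fell. Slc12a1, the salt transporter of the thick ascending limb, fell by 1.40 ± 0.38 in VPA (adjusted p = 0.00397) and by 2.01 ± 0.40 in Vehicle animals at 24 h (adjusted p = 0.000563), and Umod, the uromodulin made by the same cells, fell by 1.56 ± 0.40 (adjusted p = 0.00269) and by 1.72 ± 0.43 (adjusted p = 0.00264). Kcnj1, the potassium channel that recycles potassium there, and Bsnd, a subunit of the basolateral chloride channels, fell as well. In Dex animals at 120 h the 4 were Slc12a1, Kcnj1, Umod and Slc5a3, the myo-inositol transporter with which medullary cells take up an osmolyte. Umod alone was called in Dex animals at 24 h (-1.57 ± 0.40, adjusted p = 0.00555) and in Vehicle animals at 120 h (-1.27 ± 0.40, adjusted p = 0.0345). Aqp2, Aqp3 and Aqp4 were not called in these groups, but their intervals were wide. Aqp2 differed from naïve by -1.06 in VPA animals at 24 h without meeting the call. No difference between these channels and the thick ascending limb genes was tested. Within groups, the list correlated with Aqp2 (r = 0.86), Aqp3 (r = 0.84) and Aqp4 (r = 0.80).

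Aqp7 feeds glycerol to glycerol kinase, Gk, which turns it into a substrate for lipid and sugar synthesis. Gk fell in VPA (-1.41 ± 0.29, adjusted p = 0.000388), Dex (-1.45 ± 0.29, adjusted p = 0.000933) and Vehicle animals (-1.29 ± 0.31, adjusted p = 0.00193) at 24 h, the 3 groups in which Aqp7 passed the p-value. Gpd1, a glycerol phosphate dehydrogenase, fell in VPA animals at 24 h (-1.01 ± 0.26, adjusted p = 0.00257). Of all tested probe sets, 3.55%, 2.59% and 4.23% fell in VPA, Dex and Vehicle animals at 24 h. The other 4 of the 6 glycerol genes were not called against naïve, and the within-group correlation of the list with Aqp7 was 0.44. Lipe, another gene of the list, was lower in VPA than in Vehicle animals at 3 h (-1.32 ± 0.29, adjusted p = 0.0221). It was also lower in VPA than in Dex animals at 3 h (-1.22 ± 0.31, adjusted p = 0.0289). In these comparisons 0.0548% and 0.431% of probe sets were called. Gk was also called between 24 and 3 h in VPA (-1.09 ± 0.29) and Dex animals (-1.01 ± 0.31), against 8.19% and 5.74% of probe sets.

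No member was called between either drug and Vehicle. Over 42 values the smallest adjusted p was 0.328, for Aqp1 in Dex animals at 24 h. There the Dex values given above overlapped the Vehicle values, with a difference of 0.71 ± 0.27 and a 95% interval from 0.18 to 1.25. Aqp6 at 24 h was higher by 0.58 ± 0.31 in VPA and by 0.61 ± 0.31 in Dex than in Vehicle animals, with adjusted p-values of 0.793 and 0.531. For Aqp4 the interval of VPA less Vehicle at 120 h ran from -2.29 to 0.51, so that changes of 2-fold in principal cell channels were within what these groups allow. Few genes of any kind differed: 0.0548% (VPA) and 0.171% (Dex) of probe sets at 3 h, 0% and 0.116% at 24 h, and 0% and 0% at 120 h. At an unadjusted p under 0.05, 1 of the 42 values passed.

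**Figure D5:**
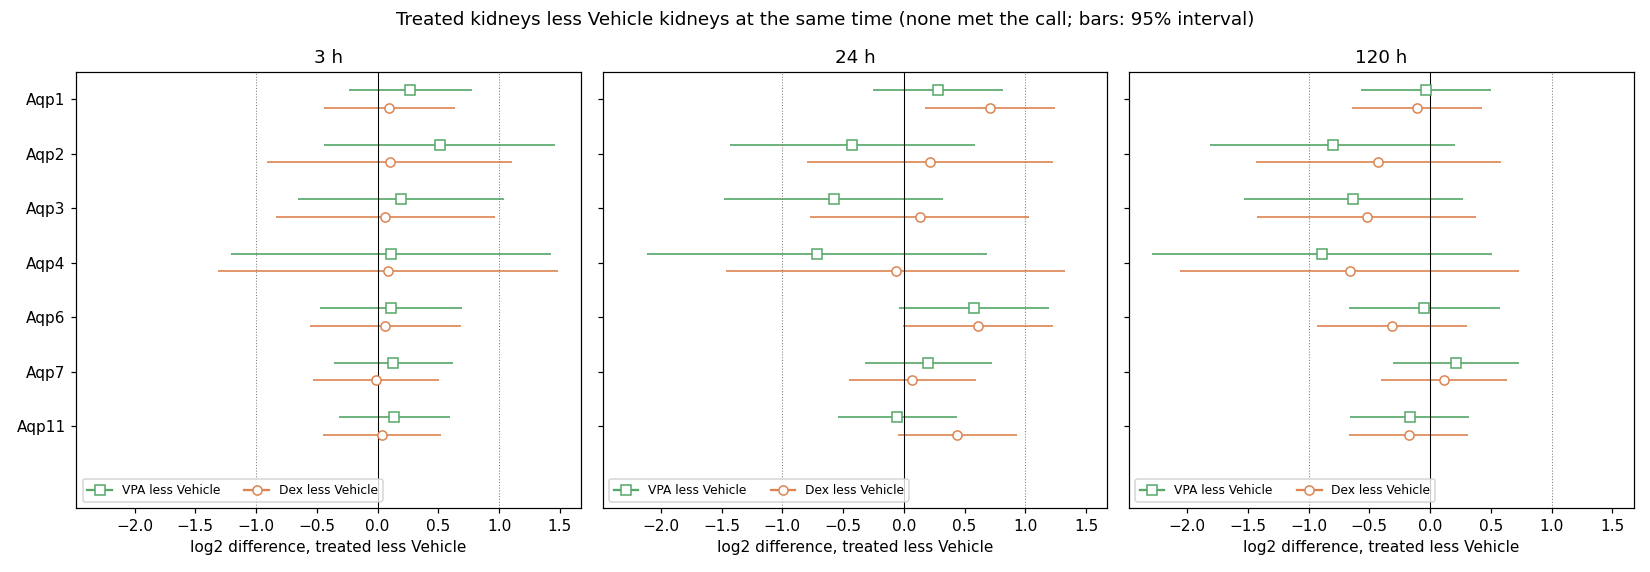
Difference in log2(signal + 16) of each aquaporin gene between treated and Vehicle kidneys at the same time. Bars are 95% intervals of the fit and dotted lines mark a 2-fold difference. No value met the call, and the widest intervals are those of Aqp4.

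No member was called between VPA and Dex (21 values, smallest adjusted p = 0.353). That value was for Aqp11 at 24 h, lower in VPA than in Dex animals by a difference of -0.49 ± 0.23, with Dex signals of 110, 184, 244, 255 and 219 overlapping the VPA signals given above. Between VPA and Dex, 0.431%, 0.329% and 0% of probe sets were called at 3, 24 and 120 h. Whether the effect of a drug differed between times was tested by interaction, and no member passed in 28 values (smallest adjusted p = 0.364).

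Between 24 and 3 h, 3 members passed the p-value in VPA animals and 2 in Vehicle animals, each by less than 2-fold, and none did in Dex animals. Aqp1 differed by -0.81 ± 0.25 in VPA (adjusted p = 0.0120) and by -0.82 ± 0.27 in Vehicle animals (adjusted p = 0.0282) between 24 and 3 h. Aqp7 differed by -0.67 ± 0.24 in VPA (adjusted p = 0.0305) and by -0.74 ± 0.26 in Vehicle animals (adjusted p = 0.0388). Aqp11 differed by -0.65 ± 0.23 in VPA animals (adjusted p = 0.0259). All 5 of its values at 3 h (200.0 to 252) lay above all 5 at 24 h (107 to 185). How many probe sets at large were separated in this way was not counted. In Dex animals the smallest adjusted p was 0.0601 (Aqp7, -0.66 ± 0.26), and Aqp1 and Aqp11 differed by -0.20 and -0.05. Of all probe sets, 33.1%, 22.3% and 18.7% passed the p-value in VPA, Dex and Vehicle animals, so that 3 and 2 of 7 members were near the share at large. With the 2-fold threshold 8.19%, 5.74% and 3.82% of probe sets were called and no member. Between 120 and 24 h no member passed the p-value (smallest adjusted p = 0.127), against 0.733%, 15.0% and 0.486% of probe sets in VPA, Dex and Vehicle animals. The shares called with the 2-fold threshold were 0.349%, 6.31% and 0.226%.

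The 3 genes most like each member were taken by Pearson's r over the 10 group means, among 8923 genes. For Aqp7 they were Mme (neprilysin, a brush border peptidase), Slc25a23 and B3galt5, with r of 0.997, 0.99 and 0.99, and for Aqp1 they were Chchd10, Atp6v0e2 and Aass, each at 0.98. For Aqp11 they were Ppara, the nuclear receptor for fatty acids, Dnase1 and Cryl1 (0.98 to 0.99). For Aqp6 they were Isyna1, the enzyme that makes inositol phosphate, Or1f20d and Slc25a48 (0.96 to 0.99). Aqp4 was most like Aqp3 (0.90), then Fxyd4, a regulator of the sodium pump in the collecting duct (0.88), and the oxytocin receptor Oxtr (0.87). Aqp2 reached only 0.89 (Mrgprx2), 0.84 (Gper1) and 0.83 (Lzts3), and Aqp3 had Or5m11 (0.94), Clul1 (0.93) and Pabpc5 (0.90). With 10 points and 8923 genes, such values are a description of likeness only.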

How the data were processed

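RNA of 46 kidneys was measured by array, 1 for each animal (Affymetrix Rat Gene 1.1 ST). The methods of the study count fewer arrays than these and leave some out after scanning. Which arrays those were is not given in the sources used here, and all 46 were used. The deposited values were linear probe set intensity signals, which the authors had summarised and normalised with iterPLIER in Affymetrix Expression Console 1.1. Intensities were used as log2(signal + 16). The offset shrinks differences of dim genes. The 50% of probe sets with the lowest standard deviation were removed after the methods of the study, and 14607 of 29214 remained. Limma 3.58.1 in R 4.3.3 fitted the 10 groups together, with 24 comparisons and 4 interactions, each adjusted by Benjamini-Hochberg over all tested probe sets. The fit was first tested on simulated data. The number of arrays limits the precision. Genes were named from the platform table where a probe set had 1 symbol (18644 probe sets), taking the brightest per gene. All 7 members are described in full. From the lists, mainly calls against naïve are given, by gene or by count, and not every call between drugs or times. The members and lists were chosen with earlier results of these data known. Lists covered proximal tubule, principal, intercalated, endothelial, macrophage, neutrophil, adipocyte and red blood cells, tubular injury, vasopressin signalling, the medullary gradient, glycerol handling and other aquaporins. Promoter windows were from RefSeq. Alternatives were quantile normalisation, a pseudocount of 1, adjustment over all probe sets, removal of dim probe sets, fits of only the 2 groups compared, variances without moderation, array weights, no fold threshold, the replicate number as a block, and leaving out each animal.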

Additional observations from a re-analysis of the deposited data

Results flagged for a closer look

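Of 70 sets of animals (7 genes in 10 groups), 5 held a lone value far from the rest of its group, by the gap to the nearest animal as a share of the range of the group on the log2 scale. Chance alone gives this in about 1 of 20 such sets. For Aqp4, VPA replicate 4 at 120 h was low (187, with the others at 727 to 877, share 0.876), and naïve replicate 2 was low (241, with the others at 917 to 1411, share 0.752). For Aqp7, Dex replicate 2 at 120 h was high in a tight group (1800, with the others at 1589 to 1601, share 0.938). Vehicle replicate 5 at 3 h was high for Aqp7 (2066, with the others at 1697 to 1756, share 0.829), and Vehicle replicate 4 at 120 h was low (710, with the others at 1649 to 2009, share 0.809).

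Of 189 pairs of effects, 1 pointed in opposite directions in every animal. Aqp1 was higher in each Dex animal than the Vehicle mean at 3 h and lower in each at 120 h, by means of 0.10 and -0.11 on the log2 scale, which are 0.21 apart. This difference was not tested, and both effects were smaller than the spread of the Vehicle animals.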

How the results depend on the processing

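The calls of Aqp1, Aqp6 and Aqp7 in Vehicle animals at 24 h and of Aqp6 in Dex animals at 120 h (3 and 1 members) held under every alternative with all animals. Other counts of called members moved as follows, each against a main count of 0 unless given, and the cause was not tested. Quantile normalization gave 1 in VPA (Aqp1) and 1 in Dex animals (Aqp7) at 24 h, and a fit of only the 2 groups gave 1 in VPA animals at 24 h (Aqp2). Without a fold threshold there were 3 in VPA, 1 in Dex and 4 instead of 3 in Vehicle animals against naïve at 24 h (Aqp11 added), where 33.0%, 20.4% and 29.0% of probe sets passed. Between 24 and 3 h there were then 3 in VPA and 2 in Vehicle animals, where 33.1% and 18.7% passed. Array weights, whose fit stopped before convergence, gave 3 in VPA and 1 in Dex animals at 24 h, 1 in Vehicle animals at 120 h and 2 instead of 1 in Dex animals at 120 h. They also gave 1 for Dex less Vehicle at 24 h (Aqp1), 2 for Vehicle at 24 less 3 h, and 1 each for Dex and Vehicle at 120 less 24 h. Array weights turned Aqp3 to 0.072 in Dex and 0.069 in Vehicle animals at 24 h, and Aqp4 to -0.32 in Vehicle animals at 120 h.

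With 1 animal left out, the counts against naïve ran from 0 to 3 in VPA, 0 to 1 in Dex and 1 to 3 in Vehicle animals at 24 h, and from 0 to 1 in VPA and 0 to 1 in Dex animals at 120 h. Aqp6 in VPA animals at 120 h was called without replicate 2 or 3 (-1.16 at the lowest), and Aqp7 in Dex animals at 24 h without naïve replicate 1 or Dex replicate 3 or 4. Between times, counts ran from 0 to 1 (VPA, 24 less 3 h), 0 to 2 (Vehicle, 24 less 3 h, with 2 reached without Vehicle replicate 1) and 0 to 1 (Vehicle, 120 less 24 h). Of 68 gene values, 10 changed sign in some setting, none of them called. At 3 h Aqp4 ran from -0.52 to 0.21 in VPA, -0.54 to 0.18 in Dex and -0.63 to 0.12 in Vehicle animals. At 24 h it ran from -0.31 to 0.43 in Dex and -0.28 to 0.69 in Vehicle animals, and at 120 h from -0.21 to 0.60 in Vehicle animals. Aqp3 ran from -0.27 to 0.13 in Dex and -0.49 to 0.054 in Vehicle animals at 24 h and from -0.42 to 0.017 in Vehicle animals at 120 h, where Aqp2 ran from -0.43 to 0.024. With the replicate number as a block, the counts were again 3 and 1 (Aqp1 -1.29 and Aqp6 -1.20 in Vehicle at 24 h, Aqp6 -1.19 in Dex at 120 h). Over 195 pairs of animals with the same number, r ran from -0.70 to 0.58 with a median of 0.01. These were not set against pairs with different numbers, so they cannot show whether the number pairs any animals. Each member had 1 probe set, so a mean over probe sets changed nothing.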
